A study of Mus musculus with 6 samples.

Results

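Rora, Maf, Ahr, Hif1a, Nfkbiz, Tmem176a, Tmem176b and Aqp3 are genes that control, or are associated with, the Th17 state of CD4+ T cells. They were chosen as a list of names, and all 8 were found among the 23366 genes of the count table and were among the 10897 genes with enough counts to test. The RNA came from CD4+ effector T cells (Teff) of the FVB/N strain background, which had been transferred into Rag-deficient host mice and were taken from their mesenteric lymph nodes 6 weeks later. Such hosts lack endogenous T and B cells but keep their innate immune cells. Cells were sorted by rhodamine 123 (Rh123), a dye that the transporter Mdr1 pumps out, into a dye-low fraction called Mdr1+ and a dye-high fraction called Mdr1-, with 3 libraries of total RNA each. Both groups share strain, host, tissue and time, no gene deletion or drug is named for either, and the age of the mice is not given in the sources used here. Whether replicates are separate mice or pools is not stated in the labels, and p-values describe only the spread between these samples, which may be technical.

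Th17 cells secrete the cytokines IL-17A, IL-17F and IL-22, which act on epithelial cells at barrier surfaces such as the gut. RORα, the product of Rora, is a nuclear receptor that binds ROR elements in DNA and supports this state. The factors c-MAF, AHR, HIF-1α and IκBζ (encoded by Maf, Ahr, Hif1a and Nfkbiz) join the same network, and each also works in other T cell states. Tmem176a and Tmem176b encode membrane proteins often found in Th17 cells, and Aqp3 encodes a channel for water and glycerol.

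The upstream sequence of Hif1a, Rora and Aqp3 was read from RefSeq windows of the build GRCm38.p6 and is shown because, of the 5 genes with a window, these 3 held a motif of the factors under study. Maf, Ahr and Nfkbiz have no window in the table. Motifs were searched on both strands as the ROR half-site AGGTCA, the AHR core GCGTG, the HIF core ACGTG and the MAF half-site TGCTGA, and matches are in capitals. Each sequence runs 5′ to 3′ on the strand of the gene and ends at the base before the start of the gene, at chr12:73907617-73907866 (plus strand) for Hif1a, chr9:68653536-68653785 (plus strand) for Rora and chr4:41098184-41098433 (minus strand) for Aqp3.
Hif1a upstream: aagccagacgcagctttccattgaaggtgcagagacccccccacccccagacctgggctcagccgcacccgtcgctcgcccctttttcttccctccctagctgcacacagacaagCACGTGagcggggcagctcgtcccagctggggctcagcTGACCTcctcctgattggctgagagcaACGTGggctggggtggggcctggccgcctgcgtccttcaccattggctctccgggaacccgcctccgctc
Rora upstream: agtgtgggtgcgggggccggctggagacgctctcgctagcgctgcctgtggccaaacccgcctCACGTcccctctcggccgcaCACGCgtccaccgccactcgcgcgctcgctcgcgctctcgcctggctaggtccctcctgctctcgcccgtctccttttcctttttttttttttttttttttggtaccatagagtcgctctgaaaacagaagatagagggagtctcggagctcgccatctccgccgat
Aqp3 upstream: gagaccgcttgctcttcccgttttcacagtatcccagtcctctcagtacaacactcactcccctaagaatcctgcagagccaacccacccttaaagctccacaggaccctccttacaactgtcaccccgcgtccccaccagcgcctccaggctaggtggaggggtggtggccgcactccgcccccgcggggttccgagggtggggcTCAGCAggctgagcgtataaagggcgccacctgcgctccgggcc

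The Hif1a sequence holds the letters of the ROR half-site on the opposite strand at -97, counted from the start of the gene. It also holds the HIF core on both strands of one palindrome, at -134 and -135, and once more at -70. A MAF half-site lies in the same RefSeq window 33 bases after the Hif1a start, outside the printed sequence. The Rora sequence holds the HIF core at -187 and the AHR core at -167, both on the opposite strand. The Aqp3 sequence holds a MAF half-site on the opposite strand at -44. Of 32851 RefSeq windows, 16.3% held the ROR half-site, 32.4% the AHR core, 19.6% the HIF core and 19.5% the MAF half-site. A match describes the letters only and is not a measured binding site.

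None of the 8 genes differed between Mdr1+ and Mdr1- cells past an adjusted p of 0.05, in either direction, while Ccr6 and Ltb4r1 among the other Th17 genes fell in Mdr1+ cells. The call of Ccr6 was lost in 2 and that of Ltb4r1 in 9 of 9 fits without a library or replicate number. Those fits have fewer libraries, and the share of all genes that each called is not given here. The test was edgeR's quasi-likelihood test with Benjamini-Hochberg adjustment over all tested genes, in which 1.95% of genes were called lower and 0.275% higher. A second fit added the replicate number as a block, because libraries of the same number in the Mdr1+ and Mdr1- groups deviated together. In that fit 6.57% of genes were called lower and 5.81% higher, and again 0 of the 8. DESeq2 called 0 of the 8, against 4.09% of the genes it tested in either direction. At an unadjusted p under 0.05, edgeR gave 1 of the 8 (all genes 11.9%), edgeR with the block gave 3 (28.2%) and DESeq2 gave 1 (9.3%). The median log2 fold change of the 8 was -0.01, with a range of -0.53 to 0.25, and that of all tested genes was 0.04. The median absolute log2 fold change was 0.15 for the 8 and 0.25 for all tested genes.

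Libraries held 2220691 to 20771456 counts in genes, with the Mdr1+ library of replicate 3 the shallowest, so 3 counts stood for 0.144 to 1.35 CPM (counts scaled to 1000000 per library). Abcb1a, the main gene for Mdr1, was at 177, 132 and 178 CPM in Mdr1+ and 72.9, 42 and 73.4 CPM in Mdr1- libraries and rose in Mdr1+ cells (log2 fold change 1.37, edgeR adjusted p = 0.0237). Its call was lost in 5 of 9 fits that leave out a library or number (highest adjusted p = 0.253). Abcb1b, the other gene for Mdr1, was at 139, 41.6 and 101 CPM in Mdr1+ and 75.9, 25.1 and 66.2 CPM in Mdr1- libraries. The groups overlapped for Abcb1b, and it was not called without the block (0.75, edgeR adjusted p = 0.624). With the block it was called higher (0.74, edgeR adjusted p = 0.00457). The 9 T cell markers summed to 5721 to 6682 CPM in Mdr1+ and 5702 to 6641 CPM in Mdr1- libraries, and 0 of them were called in either fit. Markers of γδ and CD8 T cells summed to at most 0.781 and 2.21 CPM in any library. Of 5 γδ markers only 2, Sox13 and Blk, were in the count table. Trdc, Tcrg-C1 and Tcrg-C2 were not, so this list cannot show whether γδ T cells were absent. B cell, NK cell and innate lymphoid lists reached 22.8, 20.7 and 124 CPM, with Cd22, Klrb1c and Il1rl1 highest. The innate lymphoid markers Kit and Ncr1 were at or under 2.21 and 0.14 CPM in every library. Epithelial and stromal lists reached 22.2 and 191 CPM, with Cdh1 and Pecam1 highest, and Krt8 and Klra8 were at 0 in all libraries. The sums of the B cell, NK cell and epithelial lists were higher in every Mdr1+ than in every Mdr1- library. They were carried mostly by Cd22, Klrb1c and Cdh1, while Cd79b (-0.50) and Krt18 (-1.27) had log2 fold changes below 0. In the Mdr1+ library of replicate 3, Cd79a (11.3 CPM) was above Cd22 (8.96 CPM). The B cell sums were barely apart, at 11 CPM in the lowest Mdr1+ and 10.8 CPM in the highest Mdr1- library. Of all lists of other cells, the unblocked edgeR fit called Cdh1 higher (2.04, adjusted p = 0.0382) and Acta2 lower (-4.70, adjusted p = 0.018). The blocked fit called these and also Cd22 higher (1.11, adjusted p = 0.0371) and Lyz2 (-2.52, adjusted p = 0.0461), H2-Aa (-2.48, adjusted p = 0.0192) and Cd74 (-1.15, adjusted p = 0.00432) lower. Myeloid markers summed to 107 CPM in the Mdr1- library of replicate 3 and to between 10.5 and 26.9 CPM in the others. Dendritic cell markers, led by Cd74, summed to 24.4 to 53.3 CPM in Mdr1+ and 63.6 to 93.4 CPM in Mdr1- libraries. In bulk RNA, fewer cells of a type and less RNA per cell cannot be told apart. Nor can RNA of these markers made by the T cells be told apart from RNA of other cells.

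**Figure D1:**
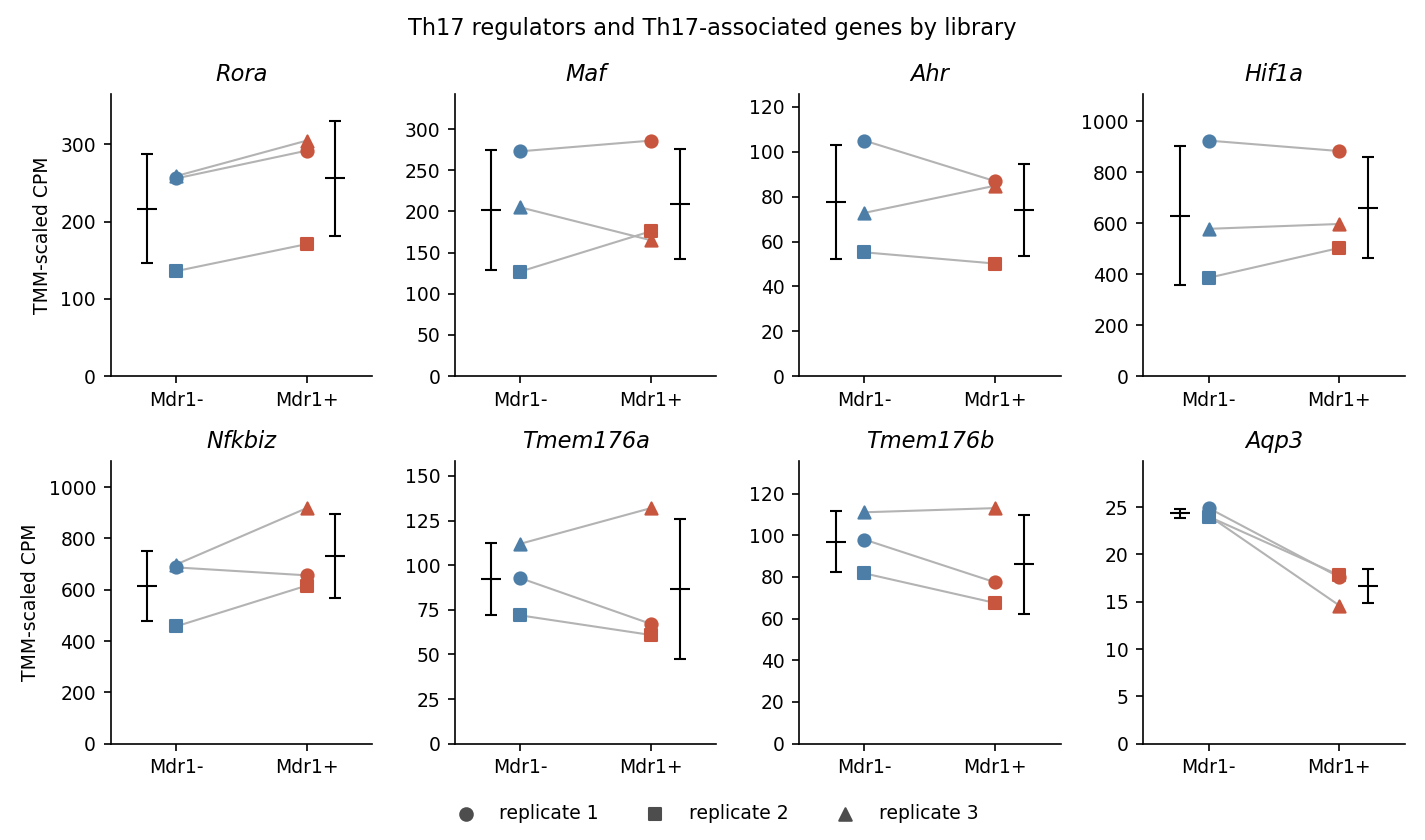
CPM scaled by TMM (y axis, linear from 0, own range per gene) of the 8 genes by fraction. Each symbol is 1 library, a grey line links the pair with one replicate number, and the black cross with whiskers gives the mean and SD of 3 libraries. The groups overlap for every gene but Aqp3, which sits at 24 to 24.9 CPM in Mdr1- and 14.6 to 17.8 CPM in Mdr1+ libraries.

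Rora encodes RORα, a nuclear receptor that can support IL-17 production. Its levels, as TMM-scaled CPM, were 292, 171 and 305 in Mdr1+ replicates 1, 2 and 3 and 256, 136 and 259 in the Mdr1- replicates. The groups overlapped, both libraries of replicate 2 were low, and within each replicate number the Mdr1+ library was the higher one. The ratios within numbers were 1.14, 1.26 and 1.18. The means were 256 ± 73.8 and 217 ± 70.2 CPM (SD, n = 3 each). The log2 fold change was 0.23 ± 0.30 (SE, edgeR adjusted p = 0.824). The 95% interval of the fold ran from 0.74 to 1.88. With the replicate block the log2 fold change was 0.25 ± 0.08 and the interval of the fold narrowed to 1.05 to 1.36, with an unadjusted p of 0.0142 and an adjusted p of 0.0839 in edgeR. Rora was thus higher in 3 of 3 pairs without passing the threshold over all genes. The labels do not state this pairing, and the share of all genes with 3 pairs in one direction is not given here.

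Of 6 tested genes on a list of other ROR family and clock genes with ROR elements, 0 were called without the block, and the median was 0.29. With the block Nr1d2, a clock repressor that binds ROR elements, rose (1.03, edgeR adjusted p = 0.00123). The related receptor gene Rorb was at or under 0.446 CPM in every library and was not tested.

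Maf encodes c-MAF, which drives IL-10 and IL-21 in several types of helper T cell. Its levels were 286, 176 and 165 CPM in Mdr1+ and 273, 127 and 205 CPM in Mdr1- libraries. The groups overlapped, replicate 1 was highest in both, and the direction was not the same in every pair, with ratios of 1.05, 1.39 and 0.81. The means were 209 ± 66.7 and 201 ± 72.8 CPM (SD, n = 3 each). In edgeR the log2 fold change was 0.06 ± 0.31 (edgeR adjusted p = 0.966) with a 95% interval of the fold of 0.64 to 1.68. With the block it was 0.10 ± 0.13 (adjusted p = 0.692).

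Of 8 tested genes on a list of MAF relatives, BACH partners and c-MAF cytokine targets, 0 were called without the block, and the median was 0.27. With the block Mafk, Bach1, Bach2 and Il10 rose and Il21 fell. In blocked fits the number that rose was 2 without replicate 1, where Bach1 (edgeR adjusted p = 0.166) and Bach2 (0.0742) were lost. Without replicate 2 it was 1, with Il10 lost as well (adjusted p = 0.0538) and Bach1 and Bach2 at 0.274 and 0.304. Il10, which encodes an anti-inflammatory cytokine, measured 20.3, 17.1 and 12.3 CPM in Mdr1+ and 6.47, 2.51 and 4.41 CPM in Mdr1- libraries, with no overlap. Its log2 fold change was 1.91 (edgeR adjusted p = 0.0502) and 1.99 with the block (adjusted p = 0.00666). Il21, a cytokine gene of Th17 and follicular helper cells, stood at -1.57 (edgeR adjusted p = 0.425) and -1.66 with the block (adjusted p = 0.00424). Il4, the other cytokine gene on this list, was not called, at -0.77 (edgeR adjusted p = 0.623) and -0.71 with the block (adjusted p = 0.13). Il10 and Il21 thus moved in opposite directions in the blocked fit, and Maf itself was not called.

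Ahr encodes a receptor for small aromatic molecules of the diet and microbiota and supports IL-22. It was at 86.9, 50.2 and 84.9 CPM in Mdr1+ and 105, 55.2 and 72.8 CPM in Mdr1- libraries. The groups overlapped and both libraries of replicate 2 were low, with ratios within numbers of 0.83, 0.91 and 1.17. The log2 fold change was -0.08 ± 0.29 (edgeR adjusted p = 0.951), and the 95% interval of the fold was 0.60 to 1.49. With the block it was -0.08 ± 0.13 (adjusted p = 0.747).

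The 5 partner genes of AHR had 0 calls in either fit and a median of 0.15. Arnt, which pairs with both AHR and HIF-1α, stood at a log2 fold change of 0.30 (edgeR adjusted p = 0.631). Of 8 AHR target genes 3 were tested, with a median of -2.76, which is the value of Il22, also one of the other Th17 genes. Cyp1a1, Cyp1a2, Cyp1b1, Ahrr and Aldh3a1 were too low to test, at no more than 0.605 CPM in any library. Nqo1, a quinone reductase gene, was at 0.166, 0.187 and 0 CPM in Mdr1+ and 2.68, 2.25 and 2.38 CPM in Mdr1- libraries and fell (edgeR adjusted p = 0.0324), a call lost in 8 of 9 fits that leave out a library or number (highest adjusted p = 0.495). With the block Nqo1 was lost without replicate 1 or replicate 2 (adjusted p = 0.197 and 0.211). Il22 was not called without the block (edgeR adjusted p = 0.0958) and fell with it (adjusted p = 0.0137). Tiparp, a feedback inhibitor of AHR, was not called, with a log2 fold change of 0.37 (adjusted p = 0.798).

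Hif1a encodes the oxygen-sensitive factor that favours glycolysis. It was at 883, 503 and 597 CPM in Mdr1+ and 924, 386 and 578 CPM in Mdr1- libraries. The groups overlapped, and replicate 1 was highest and replicate 2 lowest in both. The log2 fold change was 0.07 ± 0.33 (edgeR adjusted p = 0.962) with a 95% interval of the fold of 0.63 to 1.75, and 0.12 ± 0.10 with the block (adjusted p = 0.474). Ratios within numbers were 0.96, 1.30 and 1.03.

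Of 7 tested HIF partners and oxygen sensors, 0 were called without the block, and the median was 0.30. With the block Epas1, which encodes HIF-2α, rose (0.79, edgeR adjusted p = 0.01), a call lost without replicate 2 (adjusted p = 0.0607). Of 17 tested HIF target genes 0 were called without the block, and the median was 0.09. With the block the lysine demethylase gene Kdm3a (0.61, edgeR adjusted p = 0.00289) and the collagen hydroxylase gene P4ha1 (0.64, adjusted p = 0.00477) rose. The glycolysis genes Hk2 (-0.57, adjusted p = 0.0398) and Ldha (-0.33, adjusted p = 0.0423) fell in the same fit. Without replicate 2 both of these calls were lost (adjusted p = 0.293 and 0.324), and without replicate 3 that of Hk2 was lost (adjusted p = 0.0644).

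Nfkbiz encodes IκBζ, a nuclear IκB protein that works with RORα at the Il17a locus. It was at 656, 616 and 918 CPM in Mdr1+ and 687, 457 and 698 CPM in Mdr1- libraries. The groups overlapped, the Mdr1+ library of replicate 3 was the highest and the Mdr1- library of replicate 2 the lowest. The means were 730 ± 164 and 614 ± 136 CPM (SD, n = 3 each). The log2 fold change was 0.25 ± 0.23 (edgeR adjusted p = 0.744) with an interval of the fold of 0.82 to 1.71. With the block it was 0.25 ± 0.11 (unadjusted p = 0.0424, adjusted p = 0.161). Ratios within numbers were 0.96, 1.35 and 1.32. Without replicate 1, and with the block, Nfkbiz was the 1 gene of the 8 called higher (0.35, edgeR adjusted p = 0.0161), in a fit that called 3.93% of genes higher.

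The 10 tested relatives of IκBζ and subunits of NF-κB had 0 calls in either fit and a median of 0.13. Of 6 genes on a list of ribonucleases and decay factors chosen for Nfkbiz mRNA, 0 were called without the block, with a median of 0.23. Whether each of them acts on Nfkbiz mRNA was not tested. With the block Zc3h12a, which encodes the ribonuclease Regnase-1 (0.43, edgeR adjusted p = 0.0314), and Zfp36l2, which encodes an RNA-binding protein (0.54, adjusted p = 0.0134), rose. Leaving out replicate 2 in the blocked fit gave 1 higher and 2 lower on this list, with Zc3h12a lost (adjusted p = 0.261).

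Tmem176a and Tmem176b are neighbours that start back to back. In RefSeq (GRCm38.p6) on chromosome 6, the closest of several listed starts are 48841374 for Tmem176b on the minus strand and 48841483 for Tmem176a on the plus strand, with 108 bases between them. Other listed starts are 48840988 and 48841137 for Tmem176b and 48841656 for Tmem176a. These bases held 0 of the motifs searched. In the GENCODE annotation the genes overlap on opposite strands, and whether counting used strand is not given in the sources used here, so reads in the overlap cannot be assigned to one of them with certainty.

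Tmem176a was at 67.1, 60.9 and 132 CPM in Mdr1+ and 92.8, 71.9 and 112 CPM in Mdr1- libraries. Tmem176b was at 77.4, 67.5 and 113 CPM in Mdr1+ and 97.9, 81.7 and 111 CPM in Mdr1- libraries. For both genes the groups overlapped, replicate 3 was highest and replicate 2 lowest in each group, and Mdr1+ was the lower library of the pair in replicates 1 and 2. The ratios within numbers were 0.72, 0.85 and 1.17 for Tmem176a and 0.79, 0.83 and 1.02 for Tmem176b.

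The log2 fold change of Tmem176a was -0.11 ± 0.31 (edgeR adjusted p = 0.926), and -0.17 ± 0.14 with the block (adjusted p = 0.488). That of Tmem176b was -0.18 ± 0.22 (edgeR adjusted p = 0.812), and -0.20 ± 0.11 with the block (adjusted p = 0.288). The 95% intervals of the fold without the block were 0.57 to 1.49 and 0.62 to 1.25. The calls changed without replicate 3. In the blocked fit without it, Tmem176a (-0.38, edgeR adjusted p = 0.0275), Tmem176b (-0.33, adjusted p = 0.0355) and Aqp3 (-0.49, adjusted p = 0.0345) were called lower, 3 of the 8 where 12.1% of genes were. With all libraries the blocked fit called 6.57% of genes lower. Myeloid markers were highest in the Mdr1- library of replicate 3, at 107 CPM, and next in the Mdr1+ library of replicate 3, at 26.9 CPM, and their part in the Tmem176a and Tmem176b levels of those libraries was not tested.

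The share of Tmem176a in the summed counts of the pair does not depend on library scaling. It was 46.4% (95% exact Clopper-Pearson interval 43.1 to 49.8, counting error only), 47.4% (45.5 to 49.3) and 53.9% (49.5 to 58.2) in Mdr1+ replicates 1, 2 and 3. In the Mdr1- replicates it was 48.7% (46.3 to 51.1), 46.8% (44.4 to 49.1) and 50.4% (47.6 to 53.1). The Mdr1+ library of replicate 3 was the highest and the groups overlapped. The means were 49.2% ± 4.0 and 48.6% ± 1.8 (SD, n = 3 each; two-sided exact permutation test p = 0.9), so the balance of the pair differed by less than the spread between libraries.

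Of the MS4A genes, which encode the protein family most like TMEM176, 4 were tested and 0 were called without the block, with a median of 0.66. With the block Ms4a4b (0.77, edgeR adjusted p = 0.0125) and Ms4a6c (0.67, adjusted p = 0.0156) rose, and both calls were lost without replicate 2 (adjusted p = 0.0985 and 0.126). Tmem176a and Tmem176b had fold changes below 0 in the same fit without being called.

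Aqp3, which encodes aquaglyceroporin-3, was the gene of the 8 with separate groups. It was at 17.6, 17.8 and 14.6 CPM in Mdr1+ and 24.9, 24 and 24.1 CPM in Mdr1- libraries. Every Mdr1- library was above every Mdr1+ library, and within a group the libraries were close together. The ratios within numbers were 0.71, 0.74 and 0.61. The means were 16.7 ± 1.79 and 24.3 ± 0.502 CPM (SD, n = 3 each). Aqp3 had a log2 fold change of -0.53 ± 0.22 and missed the threshold (edgeR unadjusted p = 0.0399, adjusted p = 0.382). The 95% interval of the fold was 0.49 to 0.98. With the block the interval was 0.52 to 0.93 (unadjusted p = 0.0202, adjusted p = 0.103).

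Groups did not overlap for 1 of the 8 genes and for 19.7% of all tested genes. A two-sided exact permutation test of CPM gave p = 0.1 for Aqp3, the smallest that 3 against 3 allows, and between 0.5 and 0.9 for the other 7 genes. Adjusted over the 9 values tested this way, each was 0.9. The counts behind Aqp3 were 106, 381 and 31 in Mdr1+ and 223, 277 and 142 in Mdr1- libraries. Counting error alone gave 9.93 to 20.8 CPM for the Mdr1+ library of replicate 3 and 20.3 to 28.4 CPM for the Mdr1- one, so that pair touched within counting error. Of 10 other aquaporin genes, Aqp9 was the 1 tested (2.10 ± 0.72, edgeR adjusted p = 0.255).

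Sums of marker lists named for other cells separated in both directions, which does not show that such cells were present. The sum of the 8 dendritic cell markers was at no more than 53.3 CPM in Mdr1+ and at least 63.6 CPM in Mdr1- libraries. This was the direction of Aqp3, and the sum was carried mostly by Cd74. H2-Ab1 and Itgax, at or under 6.66 and 2.51 CPM, were also lower in every Mdr1+ than in every Mdr1- library. H2-Aa, Ccl22, Zbtb46, Flt3 and Xcr1 overlapped between groups, though the blocked fit called H2-Aa lower. The B cell, NK cell and epithelial sums were higher in every Mdr1+ library. Of 10 genes of cycling cells 9 fell in Mdr1+ cells in both fits, with a median of -2.35 over the 10. Mki67, a marker of cycling cells, fell by 2.54 on the log2 scale (edgeR adjusted p = 0.00366). Without replicate 3 the unblocked fit called 0 of the 10. That fit has fewer libraries, and the share of all genes that it called is not given here. Over the 9 unblocked fits that leave out a library or number, the log2 fold change of Mki67 stayed between -2.83 and -2.35. The part of these in the level of Aqp3 was not tested.

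**Figure D2:**
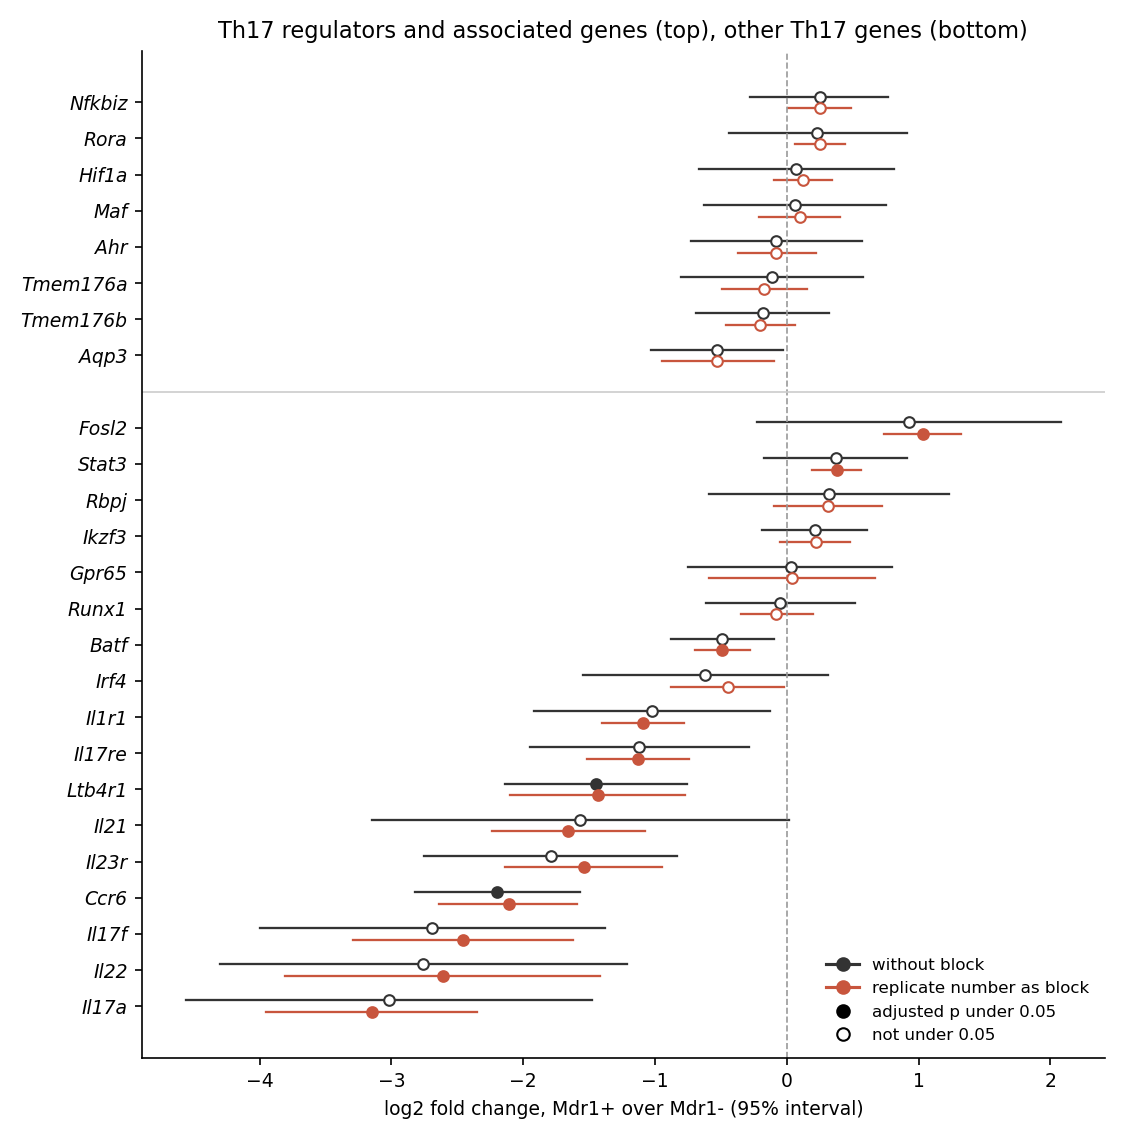
Log2 fold change of Mdr1+ over Mdr1- (x axis) with 95% intervals for the 8 genes (top) and 17 other tested Th17 lineage genes (bottom), without a block (black) and with the replicate number as a block (red); filled circles are adjusted p under 0.05. The 8 genes lie between -0.53 and 0.25 with open circles, and the lower panel reaches -3.15 for Il17a with the block.

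Several genes of the Th17 lineage outside the 8 were lower in Mdr1+ cells. On a list of 19 other Th17 lineage genes, 17 were tested, and without the block 2 fell and 0 rose, with a median of -1.02. Those 2 were the chemokine receptor gene Ccr6 (-2.20, edgeR adjusted p = 0.0057) and the leukotriene receptor gene Ltb4r1 (-1.45, adjusted p = 0.0463). The call of Ccr6 was lost without replicate 2 or replicate 3 (highest adjusted p = 0.172), and that of Ltb4r1 in all 9 fits that leave out a library or number (adjusted p 0.0629 to 0.335). Over those 9 fits the log2 fold change of Ccr6 stayed between -2.39 and -1.93. With the block 10 fell, adding Il17a, Il17f, Il22, Il23r, Il1r1, Il17re, Il21 and Batf, and 2 rose, Fosl2 and Stat3. In blocked fits Il17f was lost without replicate 1 (edgeR adjusted p = 0.0518) and Ltb4r1 without replicate 2 (adjusted p = 0.0998), and without replicate 3 the number that rose was 4. Il17a was at 7.48, 1.78 and 14.1 CPM in Mdr1+ and 80.6, 27.8 and 48.7 CPM in Mdr1- libraries, with no overlap. Its log2 fold change was -3.02 (edgeR adjusted p = 0.0621) and -3.15 with the block (adjusted p = 0.000897).

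Of the transcription factors on the same list, Stat3 and Fosl2 rose and Batf fell with the block, and Irf4, Runx1, Ikzf3 and Rbpj were not called in either fit. Stat3, which carries the IL-6 and IL-23 signal, was at a log2 fold change of 0.37 (edgeR adjusted p = 0.625) and rose with the block (0.38, adjusted p = 0.0194). Fosl2, an AP-1 factor, rose with the block (1.03, adjusted p = 0.00156). Batf, which opens chromatin together with IRF4, fell with the block (-0.49, adjusted p = 0.00976), a call lost without replicate 2 (adjusted p = 0.0538). Irf4 had log2 fold changes of -0.62 without the block (adjusted p = 0.636) and -0.45 with it (adjusted p = 0.159).

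Among 10 tested factors that oppose the Th17 program, Eomes was the 1 called without the block, and it rose (1.95, edgeR adjusted p = 0.0193). That call was lost in 4 of 9 fits that leave out a library or number (highest adjusted p = 0.172), with log2 fold changes of 1.63 to 2.21. The median of the list was 0.17. With the block Socs3, an inhibitor of STAT3 signalling, rose (0.73, adjusted p = 0.0021) and Egr2 fell (-1.03, adjusted p = 0.00173). Tbx21, which encodes the Th1 factor T-bet, was not called (0.29, adjusted p = 0.52), nor was the repressor gene Gfi1 (-0.12, adjusted p = 0.876). Foxp3, the defining gene of regulatory T cells, was at or under 0.346 CPM in every library and was not tested.

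Levels of the 8 genes also differed between replicate numbers. The mean of the pair of libraries of one number differed across numbers by 1.84-fold for Rora, 1.86-fold for Maf, 1.81-fold for Ahr and 2.05-fold for Hif1a. The span was 1.51-fold for Nfkbiz, 1.83-fold for Tmem176a and 1.50-fold for Tmem176b. For Aqp3 it was 1.11-fold. In log2 the median span was 0.86 for the 8 genes and 0.54 for all tested genes. The median absolute mean difference between fractions within numbers was 0.18 for the 8 and 0.27 for all tested genes. The span over numbers exceeded the difference between fractions in 7 of the 8 genes, all but Aqp3, and in 75.7% of all tested genes, so this share is near that of genes in general.

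Replicate 2 had the lowest mean of the 3 numbers for 7 of the 8 genes, again all but Aqp3, and for 33.9% of all tested genes. Beyond that shared low point the genes had different patterns. Maf, Ahr and Hif1a were highest in replicate 1, and Nfkbiz, Tmem176a and Tmem176b in replicate 3. Rora was high in both of those numbers.

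**Figure D3:**
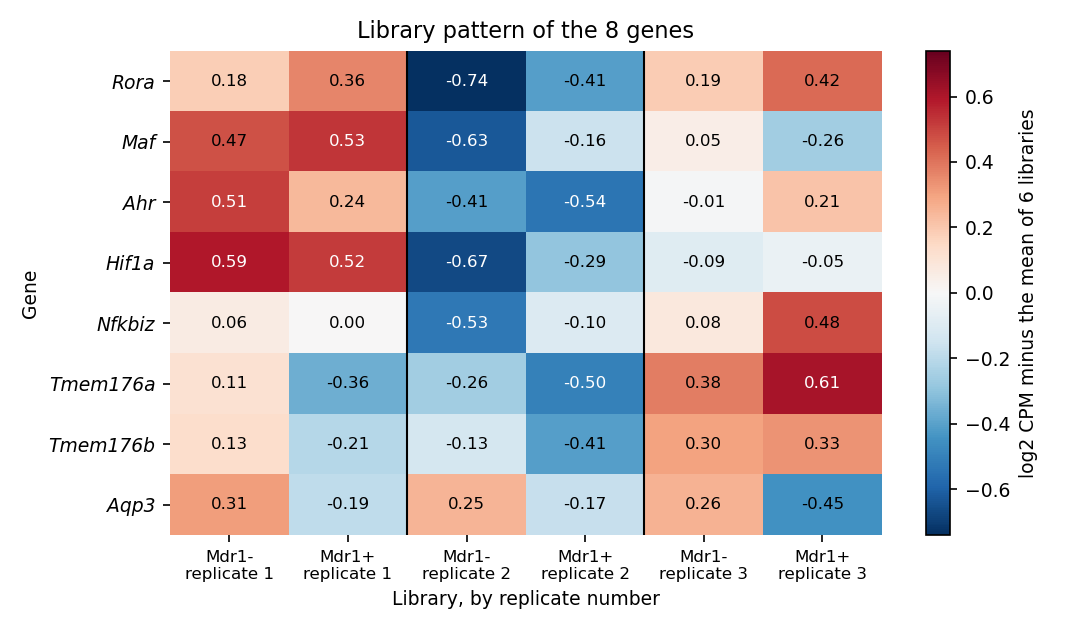
Log2 CPM of the 8 genes in each library minus the mean of the gene over 6 libraries (colour and printed value), with libraries ordered by replicate number. Columns of replicate 2 are blue for the 7 genes other than Aqp3, while Aqp3 is positive in all 3 Mdr1- libraries and negative in all 3 Mdr1+ libraries.

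Likeness between genes was measured as the root mean square difference of these centred log2 values over the 6 libraries. Among the 8 genes Maf and Hif1a were closest (0.13), followed by Tmem176a and Tmem176b (0.15), Ahr and Hif1a (0.22) and Rora and Nfkbiz (0.23). Rora and Aqp3 were farthest apart (0.60). Because the libraries share their replicate number and depth, this is a description of 6 libraries.

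Over the 8707 tested genes with enough signal, Rora was closest to Zmym5 (0.015), Mll5 (0.050) and Nptn (0.059). Maf was closest to Lancl3 (0.057), Pdp1 (0.063) and Zbtb6 (0.064), and Ahr to Arf2 (0.081), Prkci (0.083) and Tank (0.086). Hif1a was closest to Samsn1 (0.044), Fbxo11 (0.084) and Ptbp3 (0.088). Relb, the NF-κB subunit gene, was the third closest to Nfkbiz (0.072), after Kdsr (0.067) and Ep300 (0.071). Tmem176a was closest to Clcn5 (0.053), Pcdhgc3 (0.085) and Hdac1 (0.096), and Tmem176b to Fry (0.052), Nup155 (0.055) and St8sia1 (0.057). Aqp3 was closest to Atp5a1 (0.053), Gsn (0.060) and Lrrc59 (0.073).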

How the data were processed

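RNA was column-purified after DNase digestion and sequenced as stranded total RNA libraries, per the labels. The authors deposited unnormalized read counts by gene symbol. The submitters' processing notes name TopHat, HTSeq, DESeq2 and mm9. Tool versions, annotation and strandedness of counting were not given in the sources used here. Coordinates were not converted, and printed ones are of GRCm38.p6. HTSeq's classes of unassigned reads, given for replicates 1 and 2, stayed out of library sizes: 67.0% to 73.2% of entries had no unique position and 13.2% to 19.7% no feature.

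Values of both replicate 3 columns were first assigned to gene names sorted ignoring case, the order in which they stand. This moved 19002 rows (81.3%) and raised their Spearman correlations with the other libraries from 0.424 to 0.460 to 0.926 to 0.962. Tests used edgeR 4.0.16 (R 4.3.3) with TMM scaling, filterByExpr and the robust quasi-likelihood F test over all tested genes; the standard error is the log2 fold change divided by the root of F. The main fit and the exact permutation test used no pairing. For the blocked fits and the comparisons within numbers, replicate numbers were taken to pair the samples. This was because same-numbered libraries deviated together in these same data (correlations 0.41, 0.57 and 0.21), and the labels do not state a pairing. Alternatives were the replicate block, DESeq2 1.42.0, RLE factors, no filter and leaving out each library or number. The blocked fit without a number was added after values were seen. It has fewer libraries and also fits the replicate numbers, which leaves little to estimate the spread from, so calls gained or lost in it are weak evidence. Named genes are the 8, genes of the lists called in either fit, direct partners or opponents, and the 3 genes nearest in pattern. The 8 genes and all lists were chosen with earlier results of these data known, and 1 item of the lists is not reported here and stays out of their counts. The fits were tested on simulated counts with the same dispersion for all genes and no effect of replicate number. That test does not show how the fits behave with the spread of these libraries.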

Additional observations from a re-analysis of the deposited data

How the results depend on the processing

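With the replicate block, DESeq2, RLE factors and no filter, 0 of the 8 genes were called. The share of all genes called with RLE factors or without the filter is not given here, so those counts have nothing to be set against. In fits that leave out a library or number, with or without the block, the number called lower ran from 0 to 3 and the number called higher from 0 to 1; the calls came from the blocked fits without replicate 3 and without replicate 1 given above, and the cause was not tested. Nfkbiz, Tmem176b and Aqp3 kept their sign in all 16 alternatives, with log2 fold changes of 0.05 to 0.36, -0.42 to -0.03 and -0.62 to -0.47. The other 5 crossed 0 when a library or number was left out: Rora ran from -0.01 to 0.46, Maf from -0.27 to 0.31, Ahr from -0.28 to 0.17, Hif1a from -0.23 to 0.43 (in the blocked fit without replicate 2, Maf was at -0.11 and Hif1a at -0.01) and Tmem176a from -0.53 to 0.09. The difference in the Tmem176a share, 0.63 percentage points in both the unpaired and the within-number (replicate block) comparison, ran from -1.68 to 2.05. The count of other Th17 lineage genes called lower was 2, against 10 with the block, 6 with DESeq2, 4 without the filter and 0 to 4 when a library or number was left out without the block; 9 to 10 were lower in the blocked fits that left out a number. Aqp3 had the lowest count of the 8 genes in the shallowest library, at 31, and the part of depth in its result was not tested.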
